A study of Bos taurus with 30 samples.

Results

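The genes described here are 45 interferon-stimulated genes, taken by exact gene name from a list of 54, out of 10476 genes in the deposited expression tables. The other 9 names on the list (MX1, IFI16, OAS1Y, USP18, BST2, GBP2, GBP4, SP110 and RNF213) were not analysed here. RNA-seq was carried out on endometrial cells brushed from the uterus of Holstein-Friesian dairy cows of mixed parity from 1 commercial farm at 7 days postpartum (DPP), and the cows were grouped by the disease found at 21 DPP. Of the 27 cows in the comparisons, 10 remained healthy, 9 subsequently developed subclinical cytological endometritis (CYTO) and 8 subsequently developed purulent vaginal discharge (PVD). The labels name no treatment, and each library came from a brush of 1 cow. Per the study's methods the PMN were counted on another brush, taken from the same position in the uterus.

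Each group was further divided by the share of polymorphonuclear neutrophils (PMN) among the cells of that other brush at 7 DPP, with 18% as the threshold, or by the diagnosis. This gave 6 subgroups: healthy with low PMN (5 cows), healthy with high PMN (5 cows), CYTO with low PMN (5 cows), CYTO with high PMN (4 cows), PVD alone (4 cows) and PVD together with CYTO (4 cows). All 8 cows which developed PVD had high PMN at 7 DPP, so PVD and a high PMN share cannot be told apart against the healthy cows with low PMN. Cows are named below as in their labels.

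Interferons are secreted when cells detect foreign nucleic acid. They act through receptors that activate transcription factors, among them STAT2 and IRF9, which switch on a broad set of antiviral genes. In cattle the same genes are best known from the endometrium in early pregnancy, where interferon tau from the conceptus induces ISG15, MX2 and RSAD2, but interferons made during inflammation and infection act through the same route. IRF1 and GBP5 are induced mainly by interferon gamma, the product of T and natural killer cells.

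The libraries held between 11922966 and 39202083 counted reads (median 23107772), so that 1 read was worth 0.0255 to 0.0839 CPM, the read count scaled to the depth of each library and the unit used throughout. The 45 genes took between 0.148% and 1.87% of the reads of a library. All 45 passed the filter on low values in every comparison. CPM is not divided by gene length, so levels are compared between cows and not between genes. OAS1X and IFITM3 have close copies in the cattle genome and only uniquely mapped reads were counted, so their levels are uncertain. Epithelial, stromal, macrophage and neutrophil marker lists were all detected, but their proportions differed widely between brushes. The summed level of the gland markers ran from 47.8 to 67797 CPM in the cows which remained healthy. In bulk RNA a change in the number of cells of a type cannot be told apart from a change in the RNA per cell.

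The summed level of the 45 genes was highest in cows which developed CYTO with high PMN and in single cows of the other subgroups. In CYTO cows with high PMN the sums were 5638 CPM (cow s1944), 5998 CPM (s2039), 7094 CPM (s2064) and 3749 CPM (s2184), with a mean of 5620 ± 1393 (SD, n = 4). In CYTO cows with low PMN the mean was 2660 ± 374 (SD, n = 5), and the 2 subgroups did not overlap. The mean was 2647 ± 1347 (SD, n = 5) in healthy cows with low PMN and 3342 ± 1845 (SD, n = 5) in healthy cows with high PMN. It was 4351 ± 1587 (SD, n = 4) in PVD alone and 7290 ± 7666 (SD, n = 4) in PVD with CYTO, where cow s1239 alone had 18689.5 CPM.

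**Figure D1:**
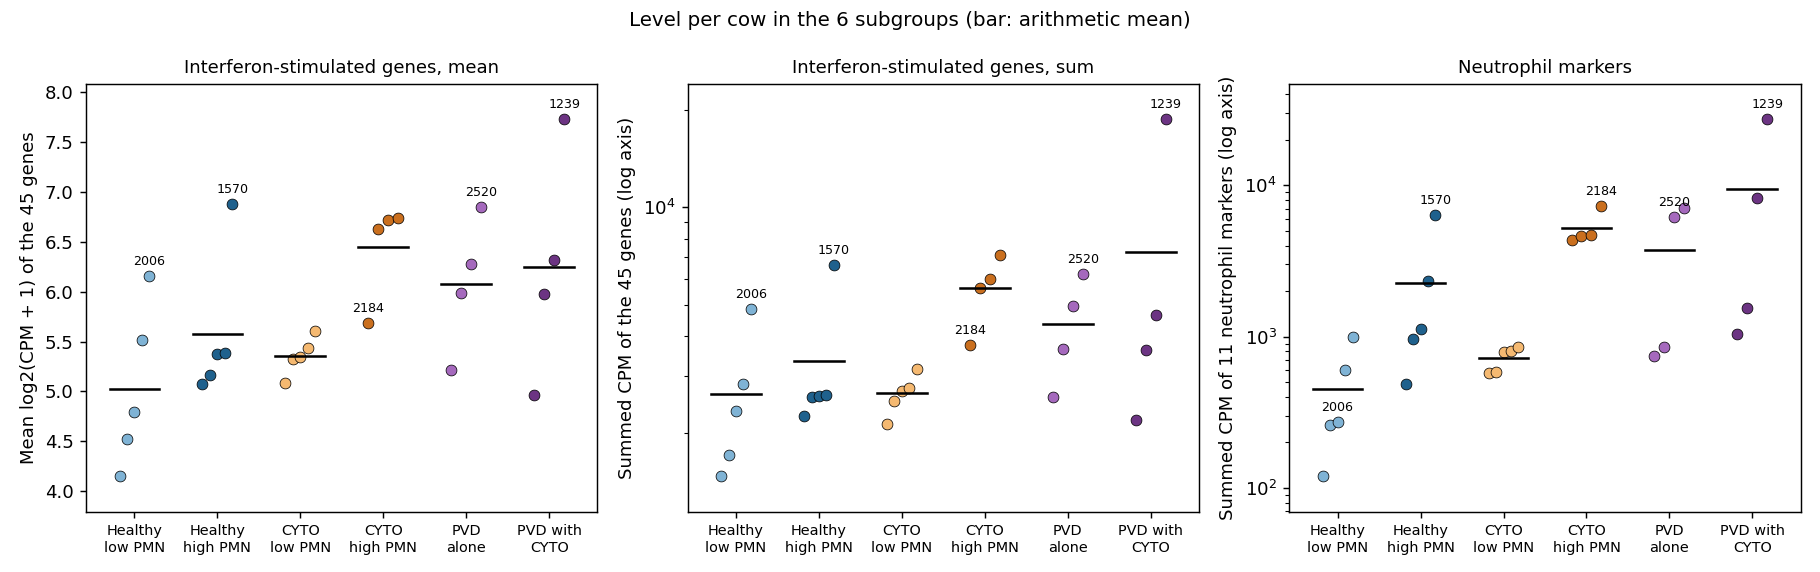
Mean log2(CPM + 1) of the 45 interferon-stimulated genes, their summed CPM and the summed CPM of 11 neutrophil markers (both sums on a log axis) in each of the 27 cows, by subgroup. Each point is 1 cow and each bar is the arithmetic mean of its subgroup. In the mean, cow s1239 (7.73) lies above all other cows, and the 4 CYTO cows with high PMN (5.69 to 6.74) lie above the 5 CYTO cows with low PMN (5.08 to 5.61).

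On the scale of the mean log2(CPM + 1) of the 45 genes, the subgroup means were 5.03 ± 0.81 in healthy cows with low PMN, 5.58 ± 0.74 in healthy cows with high PMN and 5.36 ± 0.19 in CYTO cows with low PMN (SD, n = 5 each). They were 6.45 ± 0.51 in CYTO with high PMN, 6.08 ± 0.68 in PVD alone and 6.25 ± 1.14 in PVD with CYTO (SD, n = 4 each). CYTO with low PMN was the subgroup with the smallest SD. Among healthy cows with high PMN, cow s1570 stood at 6.88 and the other 4 between 5.07 and 5.39. Among healthy cows with low PMN, the values ran from 4.15 (cow s1340) to 6.16 (cow s2006), with s1890 next at 5.52. In PVD with CYTO, cow s1239 stood at 7.73 and cow s1829 at 4.96. When the subgroups were put in order of their means, no step between neighbours exceeded the larger SD of the 2 subgroups.

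The interferon-stimulated genes varied more between cows of a subgroup than most genes did. The median SD within subgroups, on the log2(CPM + 1) scale, was 0.92 for the 45 genes and 0.53 for all genes. Cow s1239, which developed PVD with CYTO, had the highest level of the 27 cows in 29 of the 45 genes, and in 794 (7.6%) of all 10476 genes. Cow s2520 (PVD alone) was highest in 4 of the 45, and cows s1570, s2006 and s2064 in 2 each. The ratio of the highest cow to the next was 1.38 in the median of the 45 genes and 1.11 in the median of all genes.

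The 3 genes with the largest such ratio were ISG15, SAMD9 and IFIT3, and cow s1239 was the highest in each. ISG15, a ubiquitin-like protein that is attached to other proteins, stood at 2576 CPM in cow s1239 and at 394 CPM in the next cow, s2039, a ratio of 6.53. SAMD9, which restricts poxviruses, stood at 1048 CPM against 238 CPM in cow s2064, and IFIT3, which binds IFIT1 on viral RNA, at 2020 CPM against 519 CPM in cow s2064. Outside PVD with CYTO, SAMD9 ran from 29.8 to 238 CPM and IFIT3 from 3.8 to 519 CPM. In the other 3 cows of PVD with CYTO, SAMD9 stood at 33.7, 199 and 70.7 CPM and IFIT3 at 8.5, 191 and 110.1 CPM, so both genes were low in s1829 and higher in s2161. The same cow held the highest IRF1 (2681 CPM, against 710 CPM in cow s2184), ISG20 (449 CPM, against 124.5 CPM in cow s2039) and RSAD2 (909 CPM, against 252 CPM in cow s1570). Not all genes were high in this cow. IRF8 stood at 18.5 CPM, below the other 3 cows of its subgroup (61.6 to 120 CPM), and IFI6 at 66.8 CPM, below 2 of them. Cow s1239 also had the highest neutrophil marker sum of the 27 cows, at 27289 CPM. The other cows which developed PVD with CYTO had 1046 to 8181 CPM. S100A12 (12922 CPM), S100A9 (6809 CPM) and S100A8 (2980 CPM) made up most of the sum in s1239. MMP9 (109.6 CPM) and ITGAM (125.9 CPM) lay below the other 3 cows of its subgroup, and the remaining neutrophil markers lay above them. Whether neutrophils carried these transcripts was not tested.

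**Figure D2:**
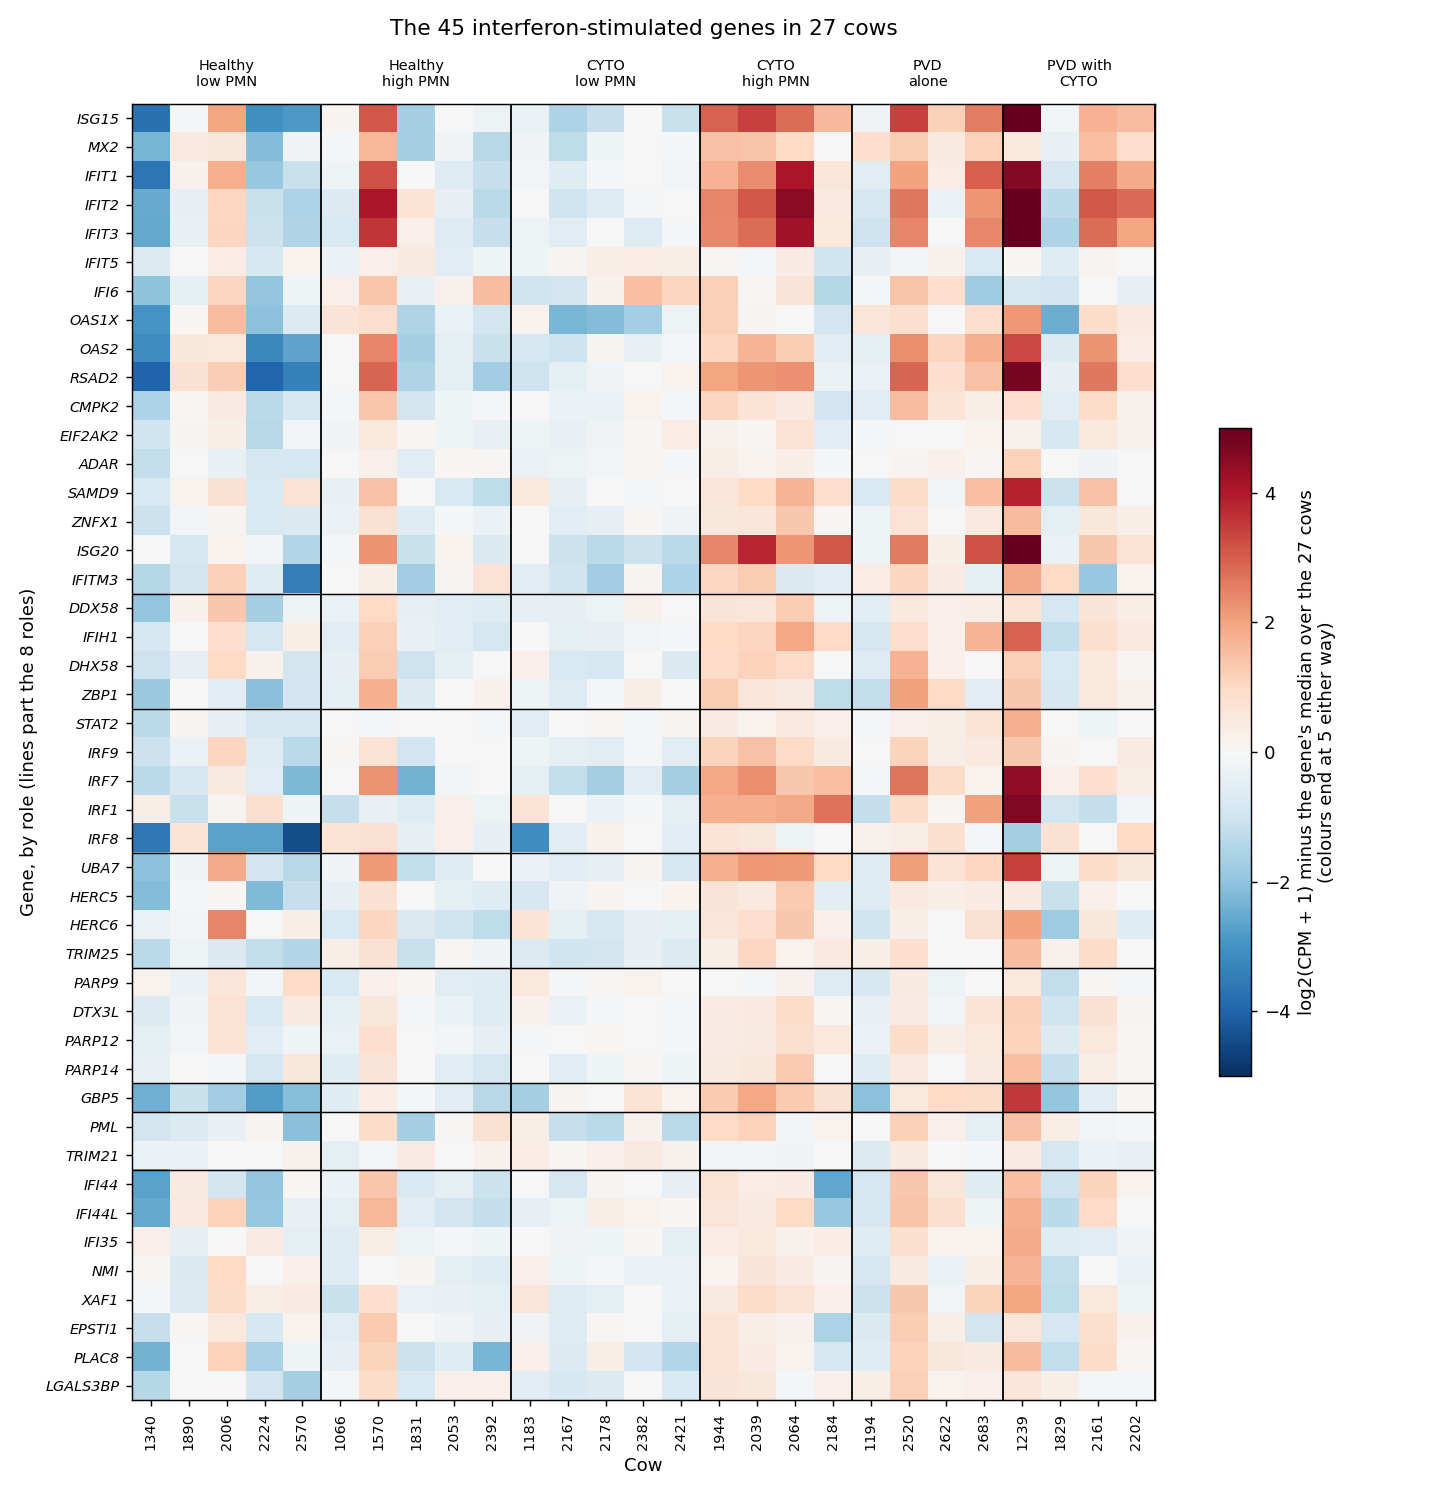
Level of each of the 45 genes in each of the 27 cows, as log2(CPM + 1) minus the median of that gene over the 27 cows. Rows are genes ordered by role and columns are cows, in order of their number within a subgroup; colours end at 5 in either direction. Cow s1239 is the darkest column, and cows s1570, s2520 and s2006 stand out within their own subgroups.

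Cows which developed CYTO were compared by their PMN at 7 DPP, which asks whether the interferon-stimulated genes differed between inflamed and uninflamed endometrium of cows with the same later diagnosis. Of the 45 genes, 17 rose in the 4 cows with high PMN against the 5 with low PMN and none fell, where a call needed an adjusted p under 0.05 (limma, Benjamini-Hochberg over all 10443 genes tested) and a change of more than 1 on the log2(CPM + 1) scale. Of all genes tested, 5.31% were called higher. The median change of the 45 genes was 0.90 and that of all genes tested was -0.14. Before adjustment, at p under 0.05, 31 of the 45 were higher and 1 was lower, against 12.6% of all genes higher. By role, 8 of 17 effectors, 2 of 4 sensors, 3 of 5 transcription factors, 3 of 4 genes of ISG15 conjugation and GBP5 rose, and none of the 4 genes of the PARP group, of PML and TRIM21, or of the 8 other induced genes did.

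Among the effectors, ISG20, an exonuclease that degrades single-stranded RNA, stood at 47.5, 124.5, 40.4 and 76.9 CPM in the 4 CYTO cows with high PMN and at 7.8, 3.3, 2.5, 3.3 and 2.5 CPM in the 5 with low PMN. No cow of the 2 subgroups overlapped, and ISG20 rose by 3.86 ± 0.38 (SE; adjusted p = 0.000499, limma). ISG15 stood at 283, 394, 257 and 112 CPM with high PMN and at 28.0, 11.8, 15.8, 35.8 and 16.1 CPM with low PMN. It rose by 3.52 ± 0.41 (SE; adjusted p = 0.00129, limma), again with no overlap. IFIT1, IFIT2 and IFIT3, which recognise viral RNA, rose by 2.41, 2.99 and 2.79, and in each the lowest cow with high PMN, s2184, lay above every cow with low PMN (IFIT2, 19.6 CPM against at most 13.7 CPM). RSAD2, which makes a nucleotide that stops viral RNA synthesis, rose by 1.83, MX2, a dynamin-like antiviral GTPase, by 1.32 and SAMD9 by 1.05. ZNFX1, an RNA sensor of the helicase family and the effector with the highest mean, stood at 304, 306, 516 and 212 CPM with high PMN and at 203, 135, 154, 209 and 181 CPM with low PMN. The subgroups were apart, but its change of 0.86 was under the threshold of 1.

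Of the genes of ISG15 conjugation, UBA7, the activating enzyme for ISG15, stood at 109, 145, 142 and 63.2 CPM with high PMN and at 25.4, 21.5, 23.6, 34.1 and 17.2 CPM with low PMN. The subgroups were apart, and UBA7 rose by 2.15 ± 0.27 (SE; adjusted p = 0.00200, limma). TRIM25, a ubiquitin ligase of the RIG-I pathway, rose by 1.24. HERC6, the ISG15 ligase of the mouse, rose by 1.09, but its lowest cow with high PMN (122 CPM) lay below cow s1183 of the low PMN subgroup (161 CPM). HERC5, the ISG15 ligase of humans, was not called.

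IRF7, the transcription factor that amplifies interferon production, stood at 61.6, 83.1, 41.3 and 46.1 CPM with high PMN and at 11.2, 6.0, 4.2, 10.4 and 4.3 CPM with low PMN. It rose by 2.89 ± 0.33 (SE; adjusted p = 0.00102, limma). IRF1, a transcription factor induced by interferon gamma and by inflammatory cytokines, stood at 367, 383, 405 and 710 CPM with high PMN and at 175, 108, 87.4, 102 and 78.1 CPM with low PMN, and rose by 2.08 ± 0.27 (SE; adjusted p = 0.00231, limma). IRF9, the DNA-binding partner of STAT2, stood at 137, 176, 122 and 85.8 CPM with high PMN and at 53.3, 45, 42.4, 58.1 and 42.2 CPM with low PMN, and rose by 1.38 ± 0.20 (SE; adjusted p = 0.00369, limma). The subgroups were apart for each of these 3 factors, and cow s2184 was the highest for IRF1 but the lowest for IRF9. Of the sensors of viral RNA, IFIH1 (MDA5) rose by 1.46 and DHX58 (LGP2) by 1.20, and DDX58 (RIG-I) was not called. GBP5, a GTPase that promotes inflammasome assembly, rose by 1.46 and stood at 51.8, 80.5, 50.9 and 34.6 CPM with high PMN and at 5.7, 22.3, 20.2, 32.7 and 23.2 CPM with low PMN.

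Of the genes that were not called, TRIM21, the cytosolic receptor for antibody, stood at 24.7 to 28.0 CPM with high PMN and at 29.6 to 38.5 CPM with low PMN; it was lower by 0.38 on the log2(CPM + 1) scale (adjusted p = 0.0356, limma), short of the threshold of 1. PARP14, an ADP-ribosyltransferase, stood at 242, 261, 433 and 175 CPM with high PMN and at 177, 122, 152, 184 and 153 CPM with low PMN, with an overlap of 1 cow with high PMN. It had a change of 0.75 (adjusted p = 0.0508, limma), and LGALS3BP, a secreted galectin ligand, a change of 0.90 (adjusted p = 0.0161, limma), with values of 186 to 309 CPM against 113 to 196 CPM. The 28 genes that were not called ran from -0.38 (TRIM21) to 1.34 (OAS1X), with OAS2 (1.30), PML (1.21), IFITM3 (1.20) and IRF8 (1.04) beyond 1 but with adjusted p from 0.0619 to 0.230 (limma). IFIT5 (-0.34), PARP9 (-0.28), IFI44 (-0.06) and IFI6 (-0.05) were, with TRIM21, the 5 genes with a negative value. In all, 17 of the 45 genes had every cow with high PMN above every cow with low PMN, as had 6.97% of all genes.

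**Figure D3:**
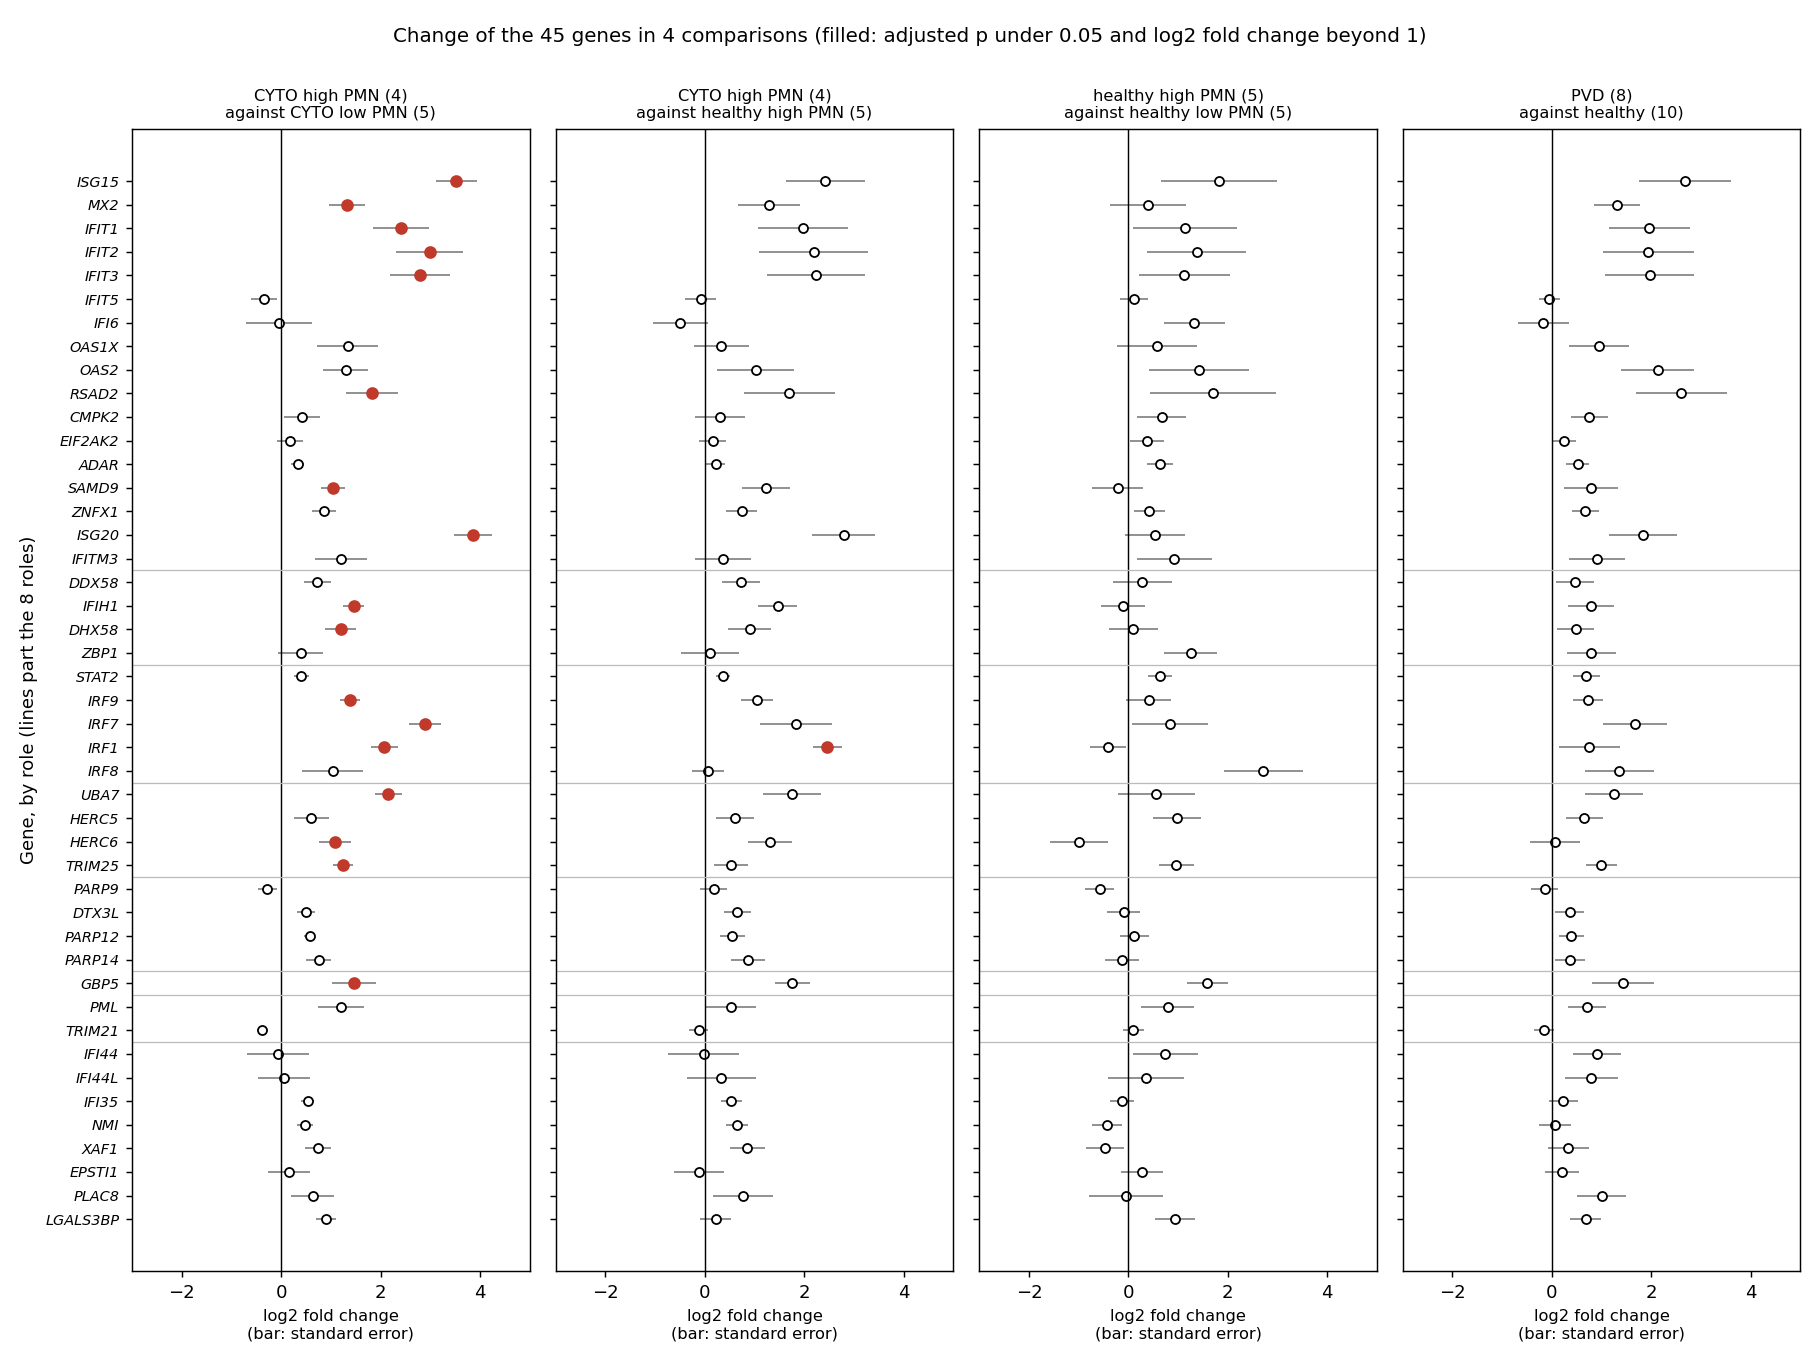
Difference of each of the 45 genes, as log2 change on the CPM + 1 scale, in the comparisons named above the panels, with the standard error of limma as the bar. Filled points are called. In CYTO with high against low PMN, 17 of the 45 are filled, led by ISG20 (3.86) and ISG15 (3.52).

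The neutrophil markers moved with the same contrast. All 11 were higher in CYTO cows with high PMN and 9 of them were called, with a median change of 3.04, and their sum was 4364 to 7316 CPM against 578 to 851 CPM. None of the 11 was at 0 in any of these cows. The macrophage markers had a median change of 0.83 with 0 of 10 called, the stromal markers a median of 0 and the gland markers a median of -0.91. Cow s2184 had the highest neutrophil sum of the 4 cows (7316 CPM) and the lowest sum of the interferon-stimulated genes (3749 CPM). S100A12 alone made up 4682 CPM of that neutrophil sum. S100A12, S100A8 (1027 CPM) and S100A9 (633 CPM) were highest in this cow, but MMP9 (269 CPM) was lowest. The remaining neutrophil markers were neither highest nor lowest in it. The part of neutrophils in the result was not tested.

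The calls depended on which cows shared the estimate of the spread. In 1 model of all 6 subgroups none of the 45 genes was called in this comparison, with adjusted p = 0.0504 for ISG20 and 0.126 for ISG15 (limma). In the same model without cow s1239, and in a model of the 4 healthy and CYTO subgroups alone, 7 were called. Over all genes the model of 6 subgroups called 31 of 10476, that without s1239 416 of 10474, and the last 386 of 10471. Without cow s2039 the comparison of the 9 cows gave 9 calls among the 45 and 537 among all 10425 genes.

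Among cows with high PMN, those which developed CYTO were compared with those in which the inflammation had resolved by 21 DPP and which were diagnosed healthy. IRF1 rose, and it was the only 1 of the 45 genes called; 0.412% of all genes tested were called higher. IRF1 stood at 367, 383, 405 and 710 CPM in the 4 CYTO cows and at 48.5, 82.3, 71.2, 129 and 90.4 CPM in the 5 healthy cows, with no overlap, and rose by 2.47 ± 0.30 (SE; adjusted p = 0.0118, limma). At an unadjusted p under 0.05, 19 of the 45 were higher, against 3.94% of all genes, and none was lower. The median change of the 45 genes was 0.65 and that of all genes -0.08.

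GBP5 and STAT2, the interferon-activated signal transducer, were also higher in each of the 4 CYTO cows than in any of the 5 healthy cows with high PMN. GBP5 stood at 34.6 to 80.5 CPM against 7.2 to 26.3 CPM, with a change of 1.76 (adjusted p = 0.0913, limma), and STAT2 at 152 to 192 CPM against 126 to 139 CPM. Of all genes, 1.42% were apart in this way. ISG20 did not separate the subgroups: it stood at 41.7 CPM in healthy cow s1570, above the lowest CYTO cow at 40.4 CPM, and at 3.2 to 9.2 CPM in the other 4 healthy cows (change 2.79, adjusted p = 0.141, limma). Without cow s1570, 8 of the 45 genes were called, and without cow s2039 or cow s2064 none was (IRF1, adjusted p = 0.0522 and 0.0656, limma). Over all genes these fits called 142 of 10427, 2 of 10422 and 3 of 10424. With all 6 subgroups in 1 model IRF1 was not called either (adjusted p = 0.806, and 0.0529 without cow s1239). Cow s1570 had a neutrophil marker sum of 6376 CPM, inside the range of the CYTO cows, and the other 4 healthy cows had 483 to 2314 CPM; the part of neutrophils in the IRF1 difference was not tested.

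**Figure D4:**
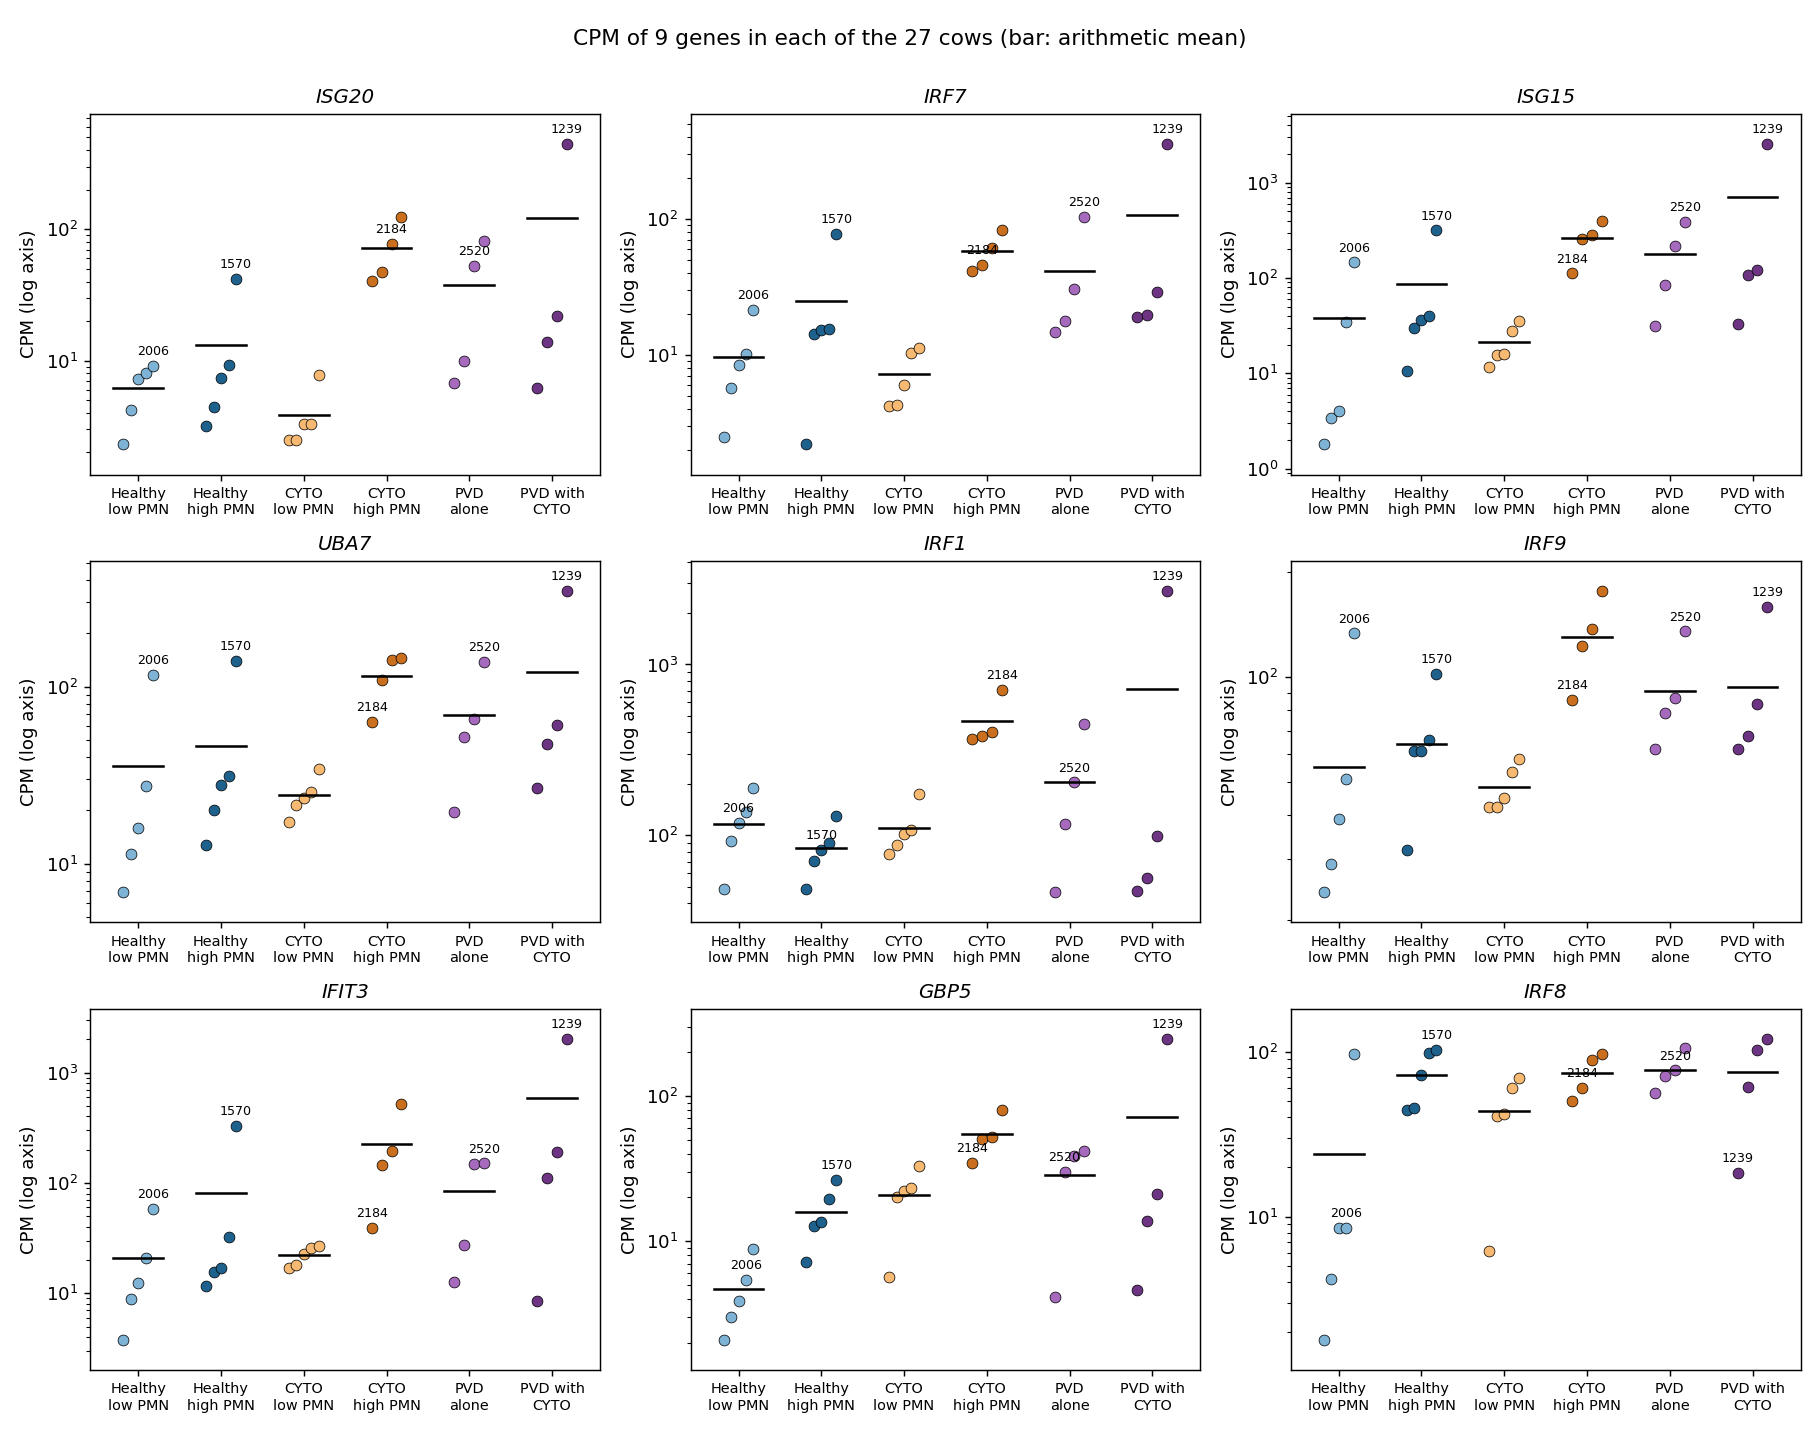
CPM on a log scale of the genes named above the panels, in each of the 27 cows by subgroup. Each point is 1 cow and each bar is the arithmetic mean of the subgroup. For IRF1 the 4 CYTO cows with high PMN (367 to 710 CPM) lie above all 10 healthy cows (48.5 to 188 CPM), and cow s1239 (2681 CPM) lies above all.

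Whether the PMN difference itself was larger in CYTO than in healthy cows was tested as an interaction over the 19 healthy and CYTO cows. None of the 45 genes was called with limma, where 0.0764% of all genes were, and 8 were positive and 1 negative at an unadjusted p under 0.05 (2.43% of all genes were positive). edgeR called none of the 45 and none of all genes, and DESeq2 called 2 of the 45 and 94 of all 10471 genes. IRF1 had the smallest p, with an interaction of 2.48 ± 0.48 (SE; adjusted p = 0.0563, limma), followed by ISG20 at 3.32 ± 0.77 (SE; adjusted p = 0.125, limma) and IFIH1 at 1.57 ± 0.54 (SE; adjusted p = 0.268, limma). In the healthy cows IRF1 ran from 48.6 to 188 CPM with low PMN and from 48.5 to 129 CPM with high PMN, so that the subgroups overlapped. IFIH1 stood at 124 to 247 CPM in CYTO with high PMN, at 46.6 to 63.2 CPM in CYTO with low PMN, and at 34.1 to 145 CPM over the 10 healthy cows. Without cow s1570 or without cow s1890, 3 of the 45 were called for the interaction, and without cow s1183, 1 was. Over all genes these fits called 122 of 10470, 588 of 10464 and 23 of 10471.

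Over the healthy and CYTO cows together, 9 of the 45 genes rose with high PMN (limma, adjusted over 10462 genes) and none fell; 8.77% of all genes were called higher. At an unadjusted p under 0.05 the numbers were 21 higher and 1 lower, against 20.9% of all genes higher, and the median change was 0.63 against 0.02 for all genes. The genes called, in order of p, were GBP5 (1.53), TRIM25 (1.09), ISG20 (2.10), ISG15 (2.62), IRF7 (1.80), IRF8 (1.93), IFIT2 (2.13), IFIT3 (1.91) and UBA7 (1.31), with adjusted p from 0.00582 to 0.0485. This contrast shares its CYTO cows with the comparison above. IRF8, the transcription factor of monocytes and dendritic cells, was the only 1 of these 9 that was not called within CYTO. IRF8 was not called with edgeR (1.29, adjusted p = 0.0898). Cell markers moved with this contrast too: all 11 neutrophil markers were called higher (median change 2.54), as were 8 of 10 macrophage markers (2.77), while the stromal markers had a median of 2.01 and the gland markers of -3.17. The part of these cells was not tested. Leaving out cow s1831, s1890 or s2006 raised the number of the 45 called to 15, 14 and 16. Over all genes it was then 1476 of 10462, 1884 of 10459 and 1348 of 10461.

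Within the cows which remained healthy, high against low PMN gave no call among the 45 genes with limma (0% of all genes were called) or with edgeR. DESeq2 called 1 of the 45 and 875 of all 10424 genes tested. Before adjustment, at p under 0.05, 7 were higher and none lower, against 16.7% of all genes higher. The median change was 0.54 against 0.14. For 25 further interferon-induced genes outside the 45 the median was -0.01, with 12 of them higher. The 5 general genes ACTB, GUSB, HSP90AB1, RPS15 and SDHA were all higher, with a median of 0.49. Among the 45 genes GBP5 had the smallest p. It stood at 12.8, 26.3, 19.6, 13.5 and 7.2 CPM with high PMN and at 3.0, 8.9, 5.4, 2.1 and 3.9 CPM with low PMN, a change of 1.59 ± 0.42 (SE; adjusted p = 0.111, limma) with 1 cow of each subgroup overlapping. IRF8 stood at 98.7, 102, 44.7, 72.7 and 45.4 CPM with high PMN and at 4.2, 96.6, 8.6, 8.5 and 1.8 CPM with low PMN (2.72 ± 0.80 SE, adjusted p = 0.111, limma), and cow s1890 alone made the subgroups overlap. TRIM25 stood at 112, 153, 41.0, 93.3 and 79.3 CPM against 34.4, 75.2, 54.7, 38.1 and 32.1 CPM (0.97 ± 0.36 SE, adjusted p = 0.139, limma).

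Marker lists of other cells moved with the same contrast. All 10 macrophage markers were higher with high PMN, with a median change of 4.32, the stromal markers had a median of 3.96 and the gland markers of -5.29. Cow s1890, although in the low PMN subgroup, had a macrophage sum of 3321 CPM and a gland sum of 229 CPM, where the other 4 cows with low PMN had 218 to 455 CPM and 6545 to 67797 CPM. Without cow s1890, 3 of the 45 genes were called, as were 2142 of all 10400 genes tested. The part of these cells in the result was not tested.

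Among cows with low PMN, those which developed CYTO were compared with those which remained healthy. None of the 45 genes was called with limma (0% of all genes) or with edgeR. DESeq2 called 1 of the 45 and 39 of all 10428 genes tested. Before adjustment 5 of the 45 were higher at p under 0.05, against 12.8% of all genes. The median change was 0.26 against 0.20 for all genes, and became -0.18 with edgeR and with DESeq2, where the median of all genes was -0.07. GBP5 (5.7 to 32.7 CPM against 2.1 to 8.9 CPM, 1.90), ZBP1, a sensor of left-handed nucleic acid (19.6, 14.4, 21.9, 29.1 and 23.1 CPM against 5.7, 23.6, 15.1, 4.7 and 11.4 CPM, 0.97), and TRIM21 (29.6 to 38.5 CPM against 22.3 to 32.4 CPM, 0.36) had the smallest p, each with an adjusted p of 0.365 (limma). The subgroups overlapped for all 3 genes. Without cow s1890, or without cow s1183, 1 of the 45 genes was called. Over all genes these fits called 376 of 10375 and 58 of 10414. Cell markers differed in this contrast as well, though none was called. All 10 macrophage markers were higher in CYTO, with a median change of 3.23. The stromal markers had a median of 3.57, the neutrophil markers of 0.97 and the gland markers of -3.57. The part of these cells was not tested. Cow s1183 had a gland sum of 36307.5 CPM, where the other 4 CYTO cows with low PMN had 173 to 1534 CPM.

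Taking all 9 cows which developed CYTO against all 10 which remained healthy, none of the 45 genes was called (limma, edgeR and DESeq2). Of all genes, limma and edgeR called 0% and DESeq2 called 23 of 10462. At an unadjusted p under 0.05, 4 were higher, against 1.96% of all genes, and the median change was 0.41 against 0.08. GBP5 ran from 5.7 to 80.5 CPM with a median of 32.7 in CYTO and from 2.1 to 26.3 CPM with a median of 8.07 in healthy cows (1.75 ± 0.45 SE). IRF1 ran from 78.1 to 710 CPM with a median of 175 in CYTO and from 48.5 to 188 CPM with a median of 91.7 in healthy cows (1.11 ± 0.40 SE). STAT2 ran from 94.3 to 192 CPM with a median of 149.8 and from 53.0 to 147 CPM with a median of 127 (0.46 ± 0.19 SE). The groups overlapped for all 3 genes, and the adjusted p was 0.986 for each (limma).

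Cows which developed PVD were compared with all 10 cows which remained healthy. None of the 45 genes was called with limma or edgeR (limma called 0% of all genes). DESeq2 called 8 of the 45 and 700 of all 10454 genes tested. At an unadjusted p under 0.05, 17 were higher and none lower, against 7.52% of all genes higher, and the median change was 0.75 against -0.13 for all genes. TRIM25 ran from 89.8 to 267 CPM with a median of 107 in PVD and from 32.1 to 153 CPM with a median of 65.0 in healthy cows (0.995 ± 0.32 SE). OAS2, which makes the oligoadenylates that activate RNase L, ran from 6.6 to 121 CPM with a median of 33.4 and from 0.34 to 65.9 CPM with a median of 6.28 (2.13 ± 0.73 SE). ISG15 ran from 31.8 to 2576 CPM with a median of 115 and from 1.8 to 316 CPM with a median of 32.5 (2.68 ± 0.93 SE). The adjusted p was 0.195 for each (limma), and the groups overlapped for all 3 genes. With all 6 subgroups in 1 model 3 of the 45 were called, as were 607 of all 10476 genes tested. Without cow s1239 that model called none of the 45. The 11 neutrophil markers had a median change of 2.34, the macrophage markers of 2.16 and the gland markers of -2.61; their part was not tested.

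Each PVD subgroup was also compared with the 5 healthy cows with high PMN, and the comparisons against healthy cows share those cows. For PVD alone no gene of the 45 was called (0% of all genes; limma, edgeR and DESeq2), and none had an unadjusted p under 0.05, where 0.259% of all genes were higher at that level. The median change was 0.45 against -0.07. MX2 stood at 196, 259, 150 and 240 CPM in PVD alone and at 103, 346, 33.3, 95.2 and 41.1 CPM in healthy cows with high PMN, a change of 1.25 ± 0.58 (SE; adjusted p = 1, limma). Healthy cow s1570 lay above all PVD alone cows and the other 4 lay below them. STAT2 (0.32) and OAS1X (0.81), another oligoadenylate synthetase, came next, both with overlap and an adjusted p of 1 (limma).

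For PVD with CYTO, again none of the 45 was called (limma, edgeR and DESeq2). Of all genes, limma and edgeR called 0% and DESeq2 called 10 of 10423. At an unadjusted p under 0.05 none was higher, against 0.365% of all genes, and 1 was lower. That gene was IFI6, which inhibits apoptosis at the mitochondrion. It stood at 66.8, 59.8, 118 and 88.8 CPM in PVD with CYTO and at 140.0, 314, 92.2, 139 and 349 CPM in healthy cows with high PMN (-1.16 ± 0.44 SE, adjusted p = 0.697, limma), with 1 cow of each subgroup overlapping. RSAD2 and ISG15 had positive changes of 2.11 ± 1.08 and 2.05 ± 1.15 (SE; adjusted p = 0.697, limma), which were 1.18 and 0.79 without cow s1239. ISG15 in PVD with CYTO was 2576, 32.8, 122 and 108 CPM, and RSAD2 was 909, 24.3, 211 and 59.3 CPM. Without cow s1239 the median change of the 45 genes was 0.08, where it was 0.50 with it, and that of all genes was -0.06, where it was -0.36.

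Between PVD with CYTO and PVD alone no gene of the 45 was called (0% of all genes; limma, edgeR and DESeq2) and none had an unadjusted p under 0.05, where 0.048% of all genes were higher. IFIT2 stood at 653, 4.8, 125 and 102 CPM and at 6.9, 88.8, 10.4 and 66.4 CPM (1.62), and IFIT3 and IFI6 had changes of 1.39 and -0.66, each with an adjusted p of 0.944 (limma). The subgroups overlapped for all 3 genes. The median change was 0.12 with cow s1239 and -0.36 without it.

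A test of any difference among the 6 subgroups found 8 of the 45 genes at an adjusted p under 0.05 (limma, F test), where 16.8% of all genes passed, and 19 at an unadjusted p under 0.05, where 34.2% did. The 8 were TRIM25 (adjusted p = 0.00864), ISG20 (0.0177), IRF8 (0.0285), ISG15 (0.0290), LGALS3BP (0.0302), IRF7 (0.0306), GBP5 (0.0398) and IRF9 (0.0424). LGALS3BP stood at 186 to 309 CPM in CYTO with high PMN and at 61.8 to 197 CPM in healthy cows with low PMN. The number depended on single cows. It was 2 of the 45 without cow s1340, s2224 or s2570, and 4 without cow s2039, s2167, s2178 or s2421. It was 5 without cow s1944, and 13 or 14 without cow s1570, s1829 or s1890. The number over all 10476 genes was 730, 782 and 685 without s1340, s2224 and s2570. It was 2013, 1939 and 3010 without s1570, s1829 and s1890.

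Genes of the same pathway outside the 45 were read from the lists named here. In CYTO with high against low PMN 5.31% of all genes were called higher and 3.41% lower. In that comparison none of the 4 receptor genes and none of the 5 kinases and signal transducers was called, with median changes of 0.23 and 0.30. IFNAR2, a chain of the receptor for type I interferon, had a change of 0.58 (adjusted p = 0.0129, limma), short of the threshold of 1. Of 9 adaptors and upstream sensors, TICAM1, the adaptor of TLR3, rose by 1.58 and IRF5 by 1.05, while TLR3, the endosomal sensor of double-stranded RNA, fell by 1.17.

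Of 5 brakes on the pathway, SOCS3, which inhibits cytokine receptor kinases, was called. It stood at 85.8, 226, 114 and 206 CPM with high PMN and at 12.6, 4.6, 2.3, 7.5 and 3.9 CPM with low PMN, without overlap (4.53, adjusted p = 0.000446, limma). Of 25 further interferon-induced genes 4 rose and 1 fell. The largest rise was that of CD274, the inhibitory ligand PD-L1, which stood at 161, 313, 373 and 206 CPM against 5.7, 9.7, 10.3, 5.3 and 9.1 CPM (4.84, adjusted p = 5.8e-05, limma). PARP10 rose by 1.38, and TAP1 and IFI30, of antigen processing, by 1.23 and 1.07, while TNFSF10, the death ligand TRAIL, fell by 1.46.

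CD274 was also called against healthy cows with high PMN (9.8, 62.1, 9.1, 14.5 and 2.5 CPM; 4.27, adjusted p = 0.0306, limma), where SOCS3 was not (3.46, adjusted p = 0.0673, limma). In cow s1239 CD274 stood at 1464 CPM and SOCS3 at 1277 CPM. The interferon genes themselves, 10 names, were not analysed here.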

How the data were processed

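Cytobrush RNA was sequenced on stranded mRNA libraries as single-end reads of 100 bases, in pools whose members are not given in the sources used here. Per the labels and the study's methods, the authors mapped trimmed reads to the UMD3.1 build (STAR, at most 2 mismatches), counted uniquely mapped reads per protein-coding gene of Ensembl version 86 with featureCounts, and deposited CPM values (reads scaled to the depth of each library). The submitters' processing notes also name R 3.3.2 and edgeR 3.18.0. The strand setting of the counting is not given in the sources used here. The tables hold fold changes and p-values of the authors' own comparisons as well, and these were not used.

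Groups were taken from the labels. The PMN and PVD subgroups were taken from the study's classification of each cow, matched by cow number. The cows that each deposited comparison table holds served as a recheck. Of 30 libraries, 27 entered the comparisons and 3, from cows outside the study set, entered only an alternative. No 2 libraries agreed within sampling noise. The labels tie no cows to shared litters, days or sequencing pools, and such ties could not be checked. P-values measure the spread between these cows.

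Differences were tested with limma 3.58.1 in R 4.3.3 (trended empirical Bayes) on log2(CPM + 1), with the cows of each comparison only, for genes of at least 1 CPM in 5 libraries (4 where the smaller group had 4 cows). P-values were adjusted by Benjamini-Hochberg over all genes tested, and a gene was called at an adjusted p under 0.05 and a log2 change beyond 1. The pseudocount of 1 understates the change of low genes. CPM steps gave whole reads for 100% of the values checked (tolerance 0.01), but only 17 of the 30 libraries had at least 100 values of 20 reads or fewer on which the step can be checked, so that recovery is less certain in the others. On these reads edgeR 4.0.16 (quasi-likelihood) and DESeq2 1.42.0 were run as alternatives. In CYTO with high against low PMN they called 19 and 22 of the 45 genes, and 892 and 1206 of all 10443 genes. The fits were tested on simulated reads with known changes, for the cows of PVD against healthy. The simulation used neither the spread between cows seen here nor groups of 4 or 5 cows, so it does not show how the fits perform there.

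The genes described one by one are those called in a comparison, at most the 6 with the smallest p, or the 3 with the smallest p where none was called, the 3 genes with the largest ratio of the highest cow to the next, and the gene of the highest mean CPM in each role. Their values are given per cow or as a range. The gene list, its roles and the marker lists were chosen with earlier results of these data known. Alternatives were other pseudocounts (0.1 and 5 CPM), no filter, TMM and RLE factors, 1 model of all subgroups, the 3 other cows added, and each cow left out.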

Additional observations from a re-analysis of the deposited data

Results flagged for a closer look

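Within each of the 6 subgroups the gap between the highest or lowest cow and the next was compared with the whole range of the subgroup, for 27 quantities (the mean and the sum of the 45 genes, and single genes named in the text). A gap larger than Dixon's critical value for 4 or 5 cows was found in 39 of 162 cases. Chance flags about 1 in 20 groups for a single independent quantity with normally distributed values. The sum and the single genes were taken as CPM and not on the log scale, so this rate need not hold. These quantities also overlap, move together in the same cows and include ISG15, SAMD9 and IFIT3, chosen for 1 cow far above the rest. The number of cases therefore has no chance value. The values below are gaps as a share of the range.

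Healthy cow s1570, with high PMN, gave 16 of the 39. Its mean level (0.826) and its sum (0.917) stood apart from the other 4 healthy cows with high PMN, as did HERC6 (0.883), IFIH1 (0.865), IFIT2 (0.925), IFIT3 (0.935), IRF7 (0.822), ISG15 (0.905), ISG20 (0.845), MX2 (0.776), OAS2 (0.866), RSAD2 (0.902), SAMD9 (0.748), UBA7 (0.855), ZBP1 (0.813) and ZNFX1 (0.715). This cow had the highest neutrophil sum (6376 CPM) and macrophage sum (5991 CPM) of its subgroup, and the part of these cells was not tested.

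Cow s1239, with PVD and CYTO, gave 10: the sum (0.851), GBP5 (0.932), IFIT3 (0.909), IRF1 (0.980), IRF7 (0.970), ISG15 (0.965), ISG20 (0.964), SAMD9 (0.837), STAT2 (0.943) and UBA7 (0.893). Healthy cow s2006, with low PMN, gave 4: HERC6 (0.897, 546 CPM against 128 CPM in the next cow), IRF9 (0.756), ISG15 (0.771) and UBA7 (0.814). Its neutrophil sum was 271.5 CPM, inside the range of its subgroup (120 to 991 CPM).

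Cow s2184 was lowest of the CYTO cows with high PMN in the mean level (0.897) and highest in IRF1 (0.889), and cow s2064 was highest in IFIH1 (0.926). Among CYTO cows with low PMN, cow s1183 was highest in HERC6 (0.809) and ISG20 (0.849), cow s2167 lowest in MX2 (0.748) and cow s2382 highest in LGALS3BP (0.768). Cow s1890 was highest in IRF8 (0.928) among healthy cows with low PMN, and cow s2520 highest in LGALS3BP (0.925) in PVD alone.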

How the results depend on the processing

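Of 838 recomputed values of single genes, 800 kept their call or lack of one, 26 became called, 12 lost the call and 0 changed sign. Of 524 counts and medians, 44 moved, none of them one of the 245 medians. A median was taken as moved only when its shift reached the SD within subgroups of the mean log2(CPM + 1). Smaller shifts still changed the sign of some medians. In PVD with CYTO against PVD alone the median went from 0.12 to -0.36 without cow s1239. In CYTO against healthy with low PMN the median turned negative with edgeR and with DESeq2. No paired analysis was possible because the groups hold different cows. With DESeq2 the number of the 45 genes called was 8 in PVD against healthy, 1 in healthy high against low PMN, 2 in CYTO against healthy with high PMN, 1 in CYTO against healthy with low PMN, 2 for the interaction and 18 for any difference among subgroups (17 with edgeR). Over all genes DESeq2 called 700 of 10454 in PVD against healthy and 875 of 10424 in healthy high against low PMN. It called 128 of 10432 in CYTO against healthy with high PMN and 39 of 10428 with low PMN. For the interaction it called 94 of 10471, and for any difference 3460 of 10476 (2391 with edgeR). With 5 CPM added, with TMM and with RLE factors the interaction gave 1 of the 45 each. Over all 10471 genes these settings gave 40, 18 and 19. In 1 model of the 6 subgroups, 607 of all 10476 genes were called in PVD against healthy and 1381 in healthy high against low PMN. Of the 45, that model called 3 in PVD against healthy and 1 in healthy high against low PMN. It called 0 in CYTO against healthy with high PMN and 0 in CYTO high against low PMN. Without cow s1239 that model, chosen after seeing the data, gave 2, 0 and 7 for the last 3 of these. Over all 10474 genes it gave 1668, 2 and 416. A model of the 4 healthy and CYTO subgroups, also chosen after seeing the data, gave 2, 2 and 7. Over all 10471 genes that model gave 1362, 79 and 386. In healthy high against low PMN the share of the 45 genes called was thus below that of all genes. With each cow left out in turn, the number of the 45 genes called ran from 0 to 3 in healthy high against low PMN. In CYTO against healthy it ran from 0 to 8 with high PMN and from 0 to 1 with low PMN. In CYTO high against low PMN it ran from 9 to 19. Over both groups it ran from 6 to 16 for high against low PMN. It ran from 0 to 3 for the interaction and from 2 to 14 for any difference. The number over all genes changed with the cow left out too, as given above for single cows. TMM factors moved the median of all genes in PVD with CYTO against healthy with high PMN from -0.36 to -0.02. The causes were not tested.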

Other observations

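The 3 cows outside the study set were left out of the comparisons. Per the study's methods, 3 of the 30 sequenced samples were excluded because their vaginal mucus scores meant possible clinical metritis. With these 3 cows added to the comparisons by label, 0 of the 45 genes were called in PVD against healthy (median change 0.61). In CYTO against healthy 0 were called (0.46). Their sums over the 45 genes were 5489 CPM (cow s1378, labelled subclinical), 3434 CPM (s2188, labelled clinical) and 4997 CPM (s2672, labelled clinical). These lay inside the range of the 27 cows. Their neutrophil sums were 11974, 14630.1 and 35229 CPM. Only that of s2672 lay outside the range of the 27 cows (120 to 27289 CPM). IRF1 stood at 1093, 627 and 442 CPM in these cows, IFIT3 at 228, 185 and 543 CPM, and ISG15 at 114, 64.0 and 56.9 CPM. SAMD9 stood at 345, 186 and 654 CPM. In cow s2672 SAMD9 and IFIT3 lay above each of the 27 cows except s1239, and ISG15 did not.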
